A study of Mus musculus with 22 samples.

Results

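The comparison sets GFP-positive cells sorted from osteoblast cultures beside the same kind of culture left unsorted, gene by gene. Both had been compared with the embryonic stem cells (ESC) from which they came, in tables that list the same 19781 genes with the same base mean, the average normalised count over the libraries. Genes were matched by symbol, and the log2 change of the unsorted cultures was subtracted from that of the sorted cells. This value is called the difference below, so that 1 on the log2 scale is a 2-fold higher level after sorting. The genes described are the 14749 of 19781 with a base mean of at least 10, of which 14730 had a deposited p and could be tested.

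The cells carry Col2.3GFP, a transgene that couples part of a type I collagen promoter to green fluorescent protein and lights up the osteoblast lineage. The ESC group held 3 libraries of undifferentiated cells at day 0 and passage 20 to 30. The unsorted group, ESC-OB, held 3 libraries from the same reporter line at passage 20 to 30 after 35 to 40 days of differentiation. The sorted group, ESC-OB-GFPplus, held 3 libraries of GFP-positive cells taken at 35 to 40 days, with no passage given. Both kinds of culture had spent 6 days as embryoid bodies, exposed to retinoic acid (0.1 µM, days 3 to 5), in medium without LIF, PD0325901 and CHIR99021, and then through osteogenic medium. All groups therefore share 1 transgenic stem cell line, kept on feeders or feeder-free, and the sorted gate reads the transgene rather than an endogenous protein. The whole series has 22 samples in 8 groups.

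Osteoblasts are mesenchymal cells that secrete type I collagen and other matrix proteins and then mineralise them. Some become osteocytes, buried in the matrix. Differentiation of embryoid bodies is rarely pure, so that a culture can also hold beating heart muscle, epithelium, neural cells and remaining stem cells. Sorting on a collagen promoter is meant to leave the osteoblast lineage and remove the others. Enzymatic release and sorting of live cells is also known to switch on immediate early genes, and fragile or long RNA can be lost when little material is handled.

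The files hold 0 columns of per-sample values, so the level of each gene is given once for each group, as an estimated mean in normalised counts. The libraries were of unequal depth, with 4.82 to 20.99 M estimated reads for ESC, 6.87 to 11.8 M for unsorted ESC-OB and 20.3 to 27.2 M for the sorted cells. A group's floor, the value of 3 reads, was 1.22, 1.28 and 0.459 normalised counts in the same order, and it covers counting error only. Rn45s, the ribosomal RNA precursor, took 6.51% of the normalised total in ESC, 8.26% in ESC-OB and 0.443% in the sorted cells. The labels describe a standard and an ultra-low-input library kit and do not say which samples had which, so kit and sorting cannot be told apart here. A standard error follows each ± sign, the square root of the summed squared errors of both changes. Error from ESC thus counts in both, although the ESC level cancels in the difference. The error is therefore overstated, most for genes low in ESC. Since all RNA was measured in bulk, fewer cells of a type and less RNA per cell cannot be told apart.

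Of the 14730 genes tested, 2105 were higher (14.3%) and 2370 lower (16.1%) in the sorted than in the unsorted change, at a Benjamini-Hochberg adjusted p under 0.05 in a z test of the difference, 30.4% in all. "Higher" and "lower" below refer to genes that passed it. The median difference of all genes was 0.07 and the median error 0.33. The largest differences were losses. Of 680 genes that differed by at least 2 on the log2 scale, 610 lay below and 70 above 0. The 610 had a median transcript length of 4906 nt against 1293 nt for the 70 and 3086 nt for all genes.

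The difference followed transcript length across the whole table. Genes were put into 10 classes of equal size by length. In the class with the shortest transcripts, 66 to 1262 nt, the median difference was 0.63, with 31.8% of genes higher and 6.98% lower. The median was lower in each longer class, passed 0 between 3087 and 4245 nt (0.08 in the sixth class and −0.06 in the seventh), and reached −1.03 in the longest, 6663 to 123179 nt. There 1.43% of genes were higher and 54.2% lower. Across the 14655 genes with a known length Spearman's rho was −0.51, and it was 0.28 for the GC content of the transcript. Genes share libraries, so these are descriptions across genes. Genes with 1 exon had a median of 0.39 (495 genes) and those with more than 20 exons one of −0.57 (1918 genes).

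**Figure D1:**
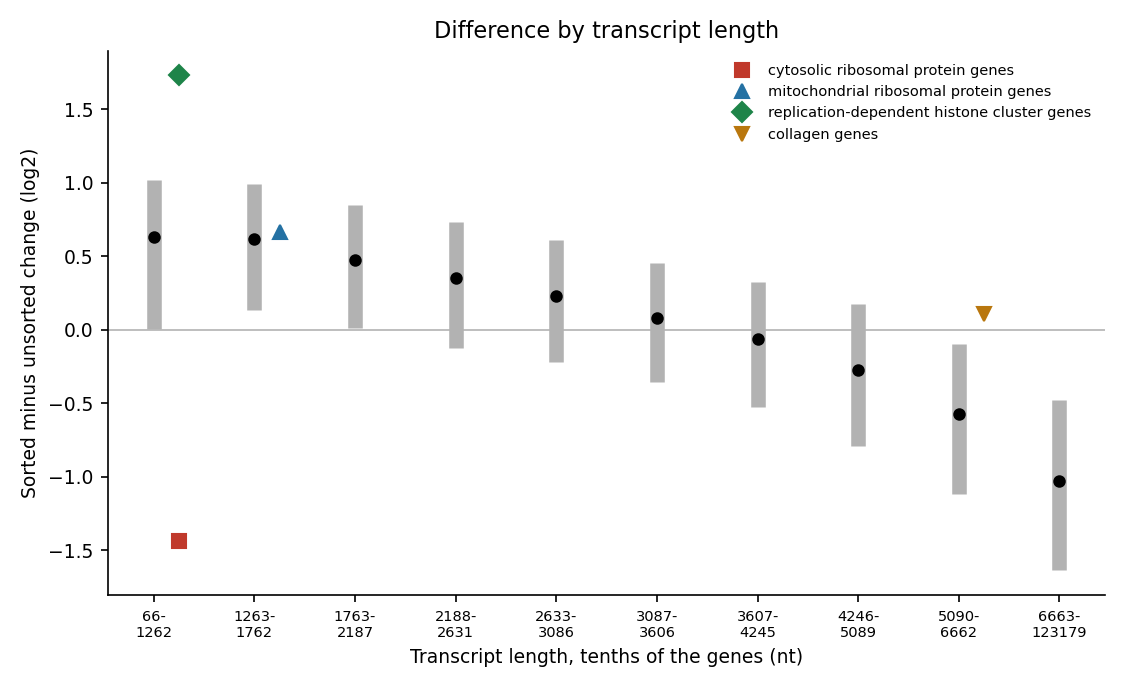
Median difference (points) and its middle 50% (grey bars), on the log2 scale, in 10 classes of genes by transcript length in nt, with the medians of 4 gene groups placed at their median length. The median falls from 0.63 in the shortest class to −1.03 in the longest, while the cytosolic ribosomal protein genes lie at −1.43 among short transcripts.

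A second value was therefore computed for each gene, the difference minus the median of the genes in its own length class, and is called length-centred below. Of 14636 genes with this value, 1179 passed as higher (8.06%) and 1719 as lower (11.7%), 19.8% in all. Among them, 737 of the 2105 higher genes and 1352 of the 2370 lower genes were kept. Whether the trend comes from the library kit, from RNA loss during sorting or from the cells was not tested. Gene lists below are given with both medians, and where their signs differ the direction depends on transcript length.

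**Figure D2:**
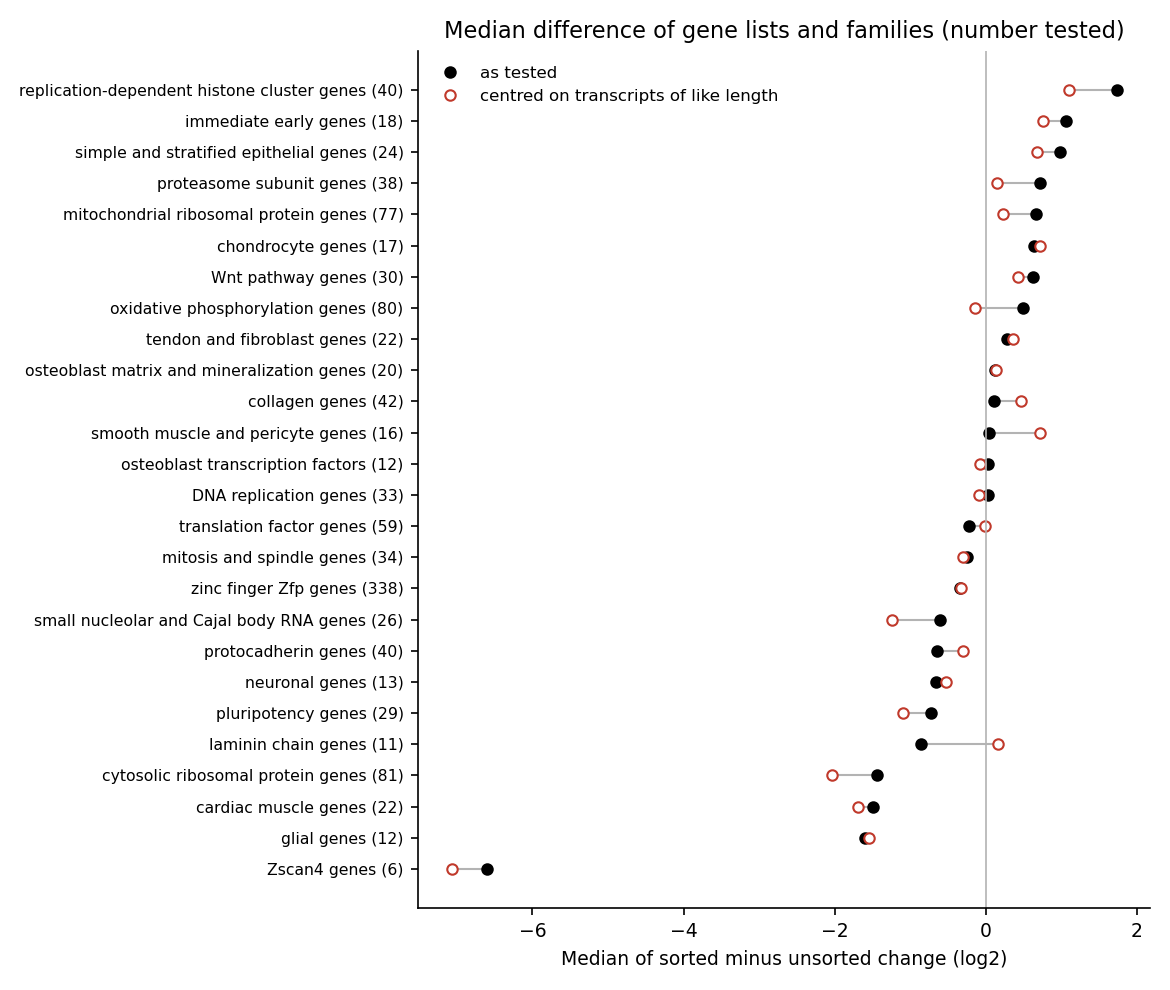
Median difference on the log2 scale for 26 gene lists and families, as tested (filled) and length-centred (open), with the number of genes tested in brackets. Cytosolic ribosomal protein, cardiac, glial and Zscan4 genes lie below 0 in both, histone, immediate early and epithelial genes above 0 in both, and laminin, oxidative phosphorylation, osteoblast transcription factor and DNA replication genes change sign.

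The genes with the largest loss were diverse. Foxo4, a forkhead transcription factor, had an estimated level of 684 normalised counts in ESC, 1067 in ESC-OB and 21.1 in the sorted cells, a difference of −5.66 ± 0.24 (z test, adjusted p = 6.28e-121). Taf15, an RNA-binding protein of the FET family, was at 1627 in ESC, 1087 in ESC-OB and 36.1 in the sorted cells (−4.91 ± 0.27). Lsm14b, which encodes a cytoplasmic mRNA-binding protein, was at 692, 568 and 21.9 in the same order (−4.70 ± 0.22). For these 3 genes the sorted cells were the low group, far under ESC and ESC-OB alike. Length-centred, they lay at −5.74, −5.38 and −5.05.

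Peg10 is an imprinted gene derived from a retrotransposon, and its level was 3188 normalised counts in ESC, 4879 in ESC-OB and 142 in the sorted cells (−5.10 ± 0.37). Other imprinted RNAs did not move as a block. The long non-coding RNA H19 was at 32385 in ESC-OB and 5811 in the sorted cells (−2.48 ± 0.58), and Rian, a maternal RNA of the Dlk1-Dio3 region, at 2599 and 139 (−4.22 ± 0.53). Meg3, from the same region as Rian, lay at 0.28 ± 0.39 and did not pass. Xist, which coats the inactive X chromosome, was at 207 in ESC, 4279 in ESC-OB and 622 in the sorted cells, a difference of −2.78 ± 0.40 and of −1.76 length-centred. The 548 X-linked genes had a length-centred median of −0.26, with 38 higher and 101 lower in the test without centring (6.93% and 18.4%).

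Several genes known from neural tissue were among the extreme losses. Eef1a2, the elongation factor form of neurons and muscle, was at 102 normalised counts in ESC-OB and 0.633 in the sorted cells, the latter close to the floor (−7.33 ± 1.29). Zic1, a zinc finger factor of the dorsal neural tube, was at 1.12 in ESC, 148 in ESC-OB and 5.62 in the sorted cells (−4.72 ± 1.25), and Pou3f2, a neuronal POU factor, differed by −5.38 ± 1.19. The related Zic2 was highest in ESC, at 574, with 265 in ESC-OB and 5.92 in the sorted cells (−5.48 ± 0.42). Lrp5, a Wnt co-receptor that regulates bone mass, was also among the strong losses, from 1891 in ESC-OB to 121 in the sorted cells (−3.97 ± 0.24, length-centred −3.39).

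The largest gains lay mostly at low levels. Krt42, a type I keratin, was at 322 normalised counts in ESC, 2.09 in ESC-OB and 37.7 in the sorted cells (4.17 ± 0.75). Ccl19, a chemokine, and Gpbar1, a bile acid receptor, differed by 4.02 ± 1.58 and 4.01 ± 1.24 from ESC-OB levels of 4.87 and 2.04, and Ccl19 no longer passed after length centring. Cebpb is the exception in level. This C/EBP transcription factor was at 84.4 in ESC, 829 in ESC-OB and 9722 in the sorted cells (3.55 ± 0.42, length-centred 2.94).

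**Figure D3:**
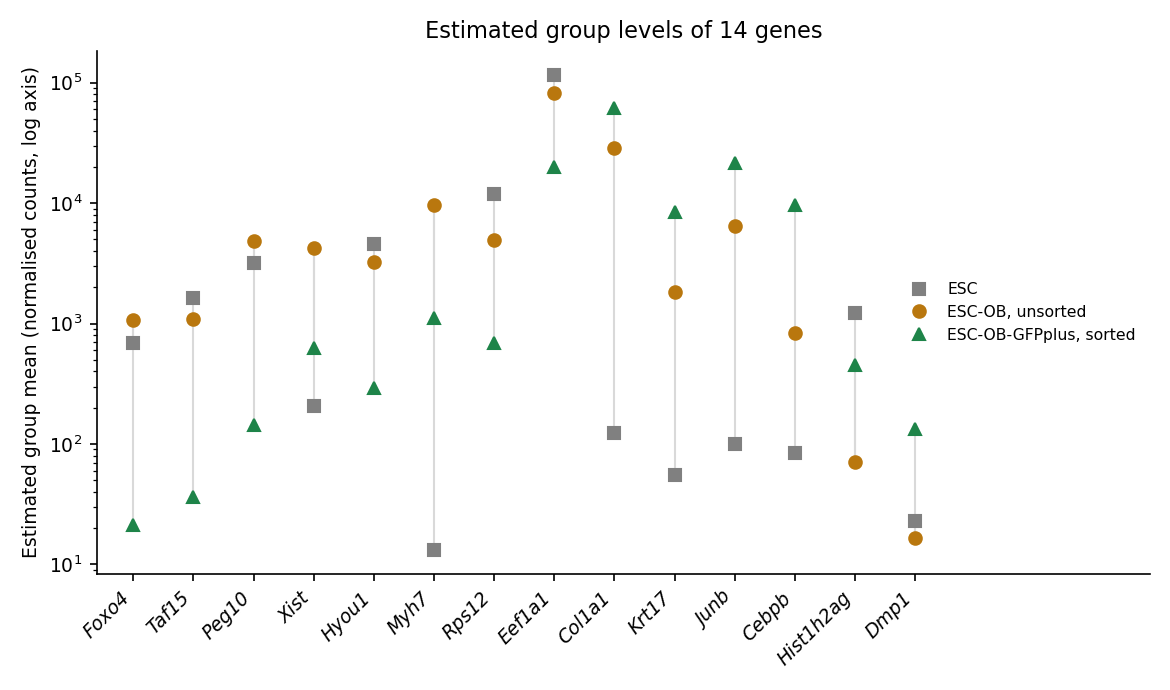
Estimated group means of 14 genes in normalised counts on a log axis for ESC (squares), unsorted ESC-OB (circles) and sorted ESC-OB-GFPplus (triangles). Each point is 1 estimate over 3 libraries with no per-sample spread, and the sorted cells are lowest for Foxo4, Taf15, Peg10, Hyou1, Rps12 and Eef1a1 and highest for Col1a1, Krt17, Junb, Cebpb and Dmp1. Levels of different genes are not adjusted for length.

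Genes of the cytosolic ribosome were lower as a group. Of 81 such genes 66 were lower and 2 higher, beside 16.1% lower and 14.3% higher among all genes, with a median of −1.43. Their transcripts are short (median 937 nt), so length centring moved them further down, to −2.04 with 72 lower and 0 higher. Their summed level was 444082 normalised counts in ESC-OB and 185948 in the sorted cells. Rps12, of the small subunit, was at 11939 in ESC, 4917 in ESC-OB and 686 in the sorted cells (−2.84 ± 0.35), and Rpl39, of the large subunit, differed by −2.67 ± 0.35. Both subunits moved alike: 37 of 48 large-subunit genes were lower (median −1.43) and 29 of 33 small-subunit genes (median −1.45). Many ribosomal protein genes have processed pseudogenes that can share their reads, so single values carry that uncertainty.

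Translation elongation factors were mostly lower as well, and other translation factors were divided. Of 8 elongation factor genes 5 were lower and 0 higher (median −1.47, length-centred −1.74). Eef1a1, which brings aminoacyl-tRNA to the ribosome, was at 116951 normalised counts in ESC, 82144 in ESC-OB and 20089 in the sorted cells (−2.03 ± 0.25). Eef2, which moves the ribosome along the mRNA, differed by −1.75 ± 0.21. The 12 eIF3 subunits, part of the scaffold for initiation, had 5 lower and 1 higher (median −0.31), and 9 lower and 0 higher after length centring (median −0.80). The 15 eIF4 factors had 5 lower and 4 higher (median −0.36, length-centred 0.01). Among them Eif4ebp2, a translation repressor, and Eif4b, a helper of the initiation helicase, were lower by −2.76 ± 0.24 and −1.999 ± 0.16. Of another complex, 4 of the 5 subunits of eIF2B, the guanine exchange factor of initiation, were higher and 0 lower (median 0.59, length-centred 0.15). Eif5a and the repressor Eif4ebp1 were higher by 1.17 ± 0.20 and 1.18 ± 0.18. All 59 translation factors together had 13 higher and 20 lower, a median of −0.22 and a length-centred median of −0.01.

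Ribosomal protein and elongation factor mRNAs are known for a terminal oligopyrimidine (TOP) tract, a run of C and T at the transcription start that ties their translation to growth signalling. The stretches around the annotated start are shown for 4 genes that were lower, from RefSeq on GRCm38.p6. Each has 15 bases before the start and 15 from it, with the run of at least 8 C or T in capitals. The Rpl31 run lies wholly before the annotated start, and whether any of these runs is a TOP tract was not tested.
Rpl31: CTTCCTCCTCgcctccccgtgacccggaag
Rps24: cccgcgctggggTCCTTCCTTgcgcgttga
Eef1a1: gctggctccgCCCTCTTCCCgagggtgggg
Eif3f: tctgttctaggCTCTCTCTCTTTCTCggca
The Rpl31 stretch is chr1:39367836-39367865 on the + strand, that of Rps24 chr14:24490663-24490692 (+), that of Eef1a1 chr9:78481710-78481739 (−) and that of Eif3f chr7:108934400-108934429 (+). Their differences were −2.17 ± 0.29 for Rpl31, −2.33 ± 0.29 for Rps24, −2.03 ± 0.25 for Eef1a1 and −1.17 ± 0.26 for Eif3f. The sequences were read from the promoter table on the coding strand.

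A run of this kind, touching the 10 bases on either side of the start, was found in 29 of 61 cytosolic ribosomal protein genes in the promoter table (47.5%), in 11 of 47 translation factor genes (23.4%) and in 4259 of all 27025 genes (15.8%). It was found in 9 of 68 mitochondrial ribosomal protein genes (13.2%). Ribosomal protein genes with the run had a median difference of −1.19, with 23 of 29 lower, and those without it one of −1.46, with 27 of 32 lower. Genes without the letters in this window were thus lower as well. Annotated starts can miss the true start, so a run in the window, or its absence, describes only the window.

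Hosts of small nucleolar RNAs, many of which also carry TOP tracts, had 4 of 11 Snhg genes lower and 0 higher (median −0.70, length-centred −1.20). Snhg1 was at 802 normalised counts in ESC, 454 in ESC-OB and 219 in the sorted cells (−1.05 ± 0.32), and Snhg12 differed by −1.91 ± 0.57. Of 26 small nucleolar and Cajal body RNA genes themselves, 6 were lower and 0 higher (median −0.61, length-centred −1.24). Snord2 differed by −3.47 ± 0.66 and Snora81 by −2.46 ± 0.42. Reads of such genes lie inside introns of their hosts and cannot be told apart from unspliced host RNA.

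The mitochondrial ribosome went the other way from the cytosolic one. Of its 77 genes 40 were higher and 0 lower (median 0.66, length-centred 0.22, with 12 higher and 4 lower after centring). Mrpl28 was at 714 normalised counts in ESC, 264 in ESC-OB and 746 in the sorted cells (1.50 ± 0.20), and Mrps28, of the small subunit, differed by 1.50 ± 0.29. Proteasome genes moved alike, with 27 of 38 higher and 0 lower (median 0.71, length-centred 0.14, with 7 higher and 3 lower after centring). They included Psmb2, a subunit of the core particle (1.21 ± 0.17), and Psmc4, an ATPase of its cap (1.09 ± 0.16). Core, ATPase and other cap subunits were higher in 11 of 18, 5 of 6 and 11 of 14 cases.

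Oxidative phosphorylation genes had 28 of 80 higher and 2 lower, with a median of 0.49 that turned to −0.14 once length was centred, with 4 higher and 11 lower. Their transcripts are short, with a median of 892 nt. Complex I, which oxidises NADH, had 17 of 36 higher (median 0.65, length-centred 0.04), led by Ndufs7 at 1.61 ± 0.26. Complex IV, cytochrome c oxidase, had 1 of 15 higher and 2 lower (median 0.23, length-centred −0.41). The 2 were Cox7a1, the muscle form of its subunit, at −2.30 ± 0.70, and Cox7a2l at −1.20 ± 0.24.

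**Figure D4:**
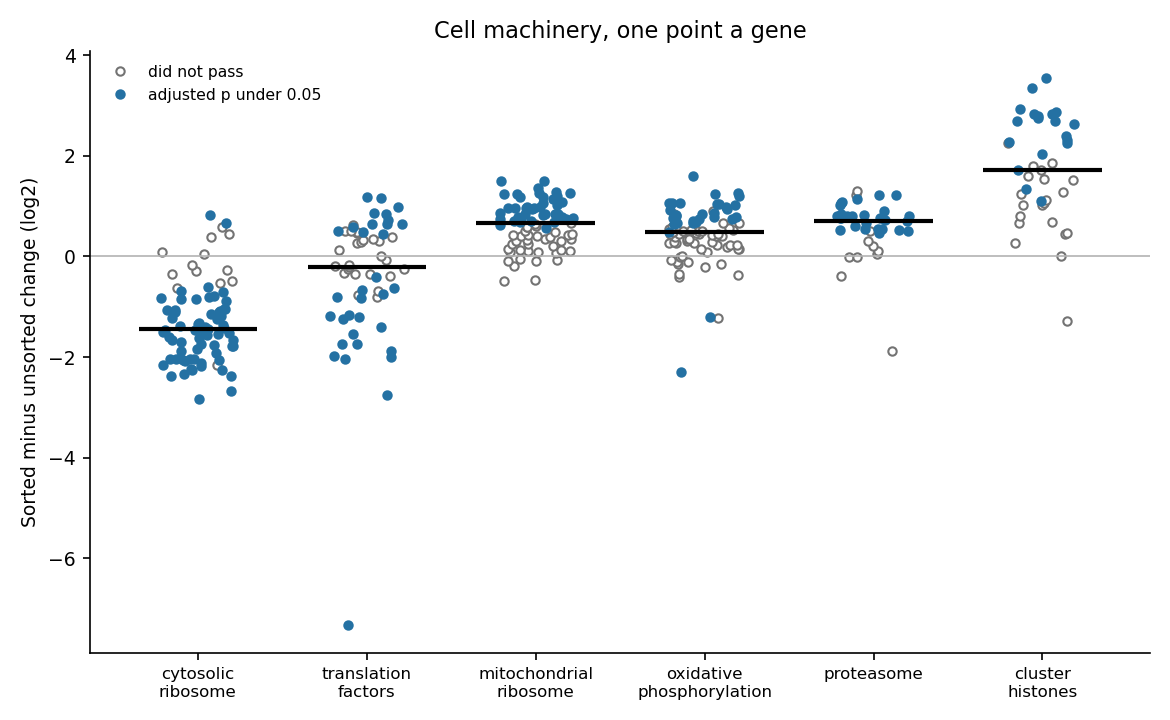
Difference on the log2 scale for each gene (points) of 6 groups of cell machinery, filled where the adjusted p was under 0.05, with the group median as a bar. The cytosolic ribosome lies at −1.43 and the cluster histones at 1.73, and translation factors spread to both sides of 0.

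Histone cluster genes had the highest median of the lists. Replication-dependent histones, made in S phase from clustered genes, had 19 of 40 higher and 0 lower (median 1.73, length-centred 1.10, with 14 higher). Their summed level was 3057 normalised counts in ESC, 858 in ESC-OB and 2276 in the sorted cells. Hist1h2ag was at 1218, 70.3 and 456 in the same order (2.70 ± 0.28). By class, the 11 H2A genes had a median of 2.69 with 9 higher, the 12 H2B genes one of 1.99 with 8 higher, the 7 H4 genes one of 1.60 with 1 higher, and the 6 H3 genes one of 1.07 with 0 higher. Near-identical copies in the clusters can share reads, so the single genes are uncertain. Replication-independent histones, which most cells make throughout the cycle, also had 8 of 10 higher and 0 lower (median 1.01, length-centred 0.44), H3f3b among them at 1.09 ± 0.13.

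Replication-dependent histone mRNAs end in a conserved stem-loop in place of a poly(A) tail, which bears on how a poly(A)-based library counts them. The element is shown for a core histone gene with a gain of small error, for a linker histone with a larger gain and for one that did not pass, from the GENCODE transcripts on GRCm38, with the stem-loop in capitals.
Hist1h2ag: caacaaaGGCTCTTTTCAGAGCCaccta
Hist1h1e: acccaaaGGCTCTTTTCAGAGCCaccca
Hist1h1c: tccaaaaGGCTCTTTTCAGAGCCaccac
The element lies at chr13:22042483-22042498 for Hist1h2ag, chr13:23621782-23621797 for Hist1h1e and chr13:23739512-23739527 for Hist1h1c, in the 3′ untranslated region of each. Hist1h1e differed by 3.36 ± 0.71, from 5.28 normalised counts in ESC-OB to 54.2 in the sorted cells. Hist1h1c lay at 0.26 ± 0.41, from 241 to 289, and did not pass. The same 16 letters thus stood in a gene that was higher and in one that did not pass.

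The element was taken from the data as the most frequent perfect hairpin, with a stem of 6 and a loop of 4 bases, in the 61 histone cluster transcripts. These letters, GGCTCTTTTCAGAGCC, were found on the transcript strand in 23 of 19526 table genes with a transcript (0.118%), of which 21 are histone cluster genes. The 16 cluster genes described here that hold it had a median of 1.94 with 8 higher, and the 24 without these letters had a median of 1.66 with 11 higher. How the library kit treats such RNA was not tested. DNA replication genes, measured beside them, had 5 of 33 higher and 2 lower (median 0.03, length-centred −0.09).

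Cell cycle genes passed in both directions. Of 34 mitosis and spindle genes 2 were higher (5.88%) and 7 lower (20.6%), beside 14.3% and 16.1% of all genes. Their median was −0.25 and length-centred −0.30, with 1 higher and 3 lower after centring. The lower ones included Mki67, a coat protein of mitotic chromosomes, which went from 991 normalised counts in ESC-OB to 188 in the sorted cells (10061 nt, −2.40 ± 0.24). Others were Top2a, the mitotic topoisomerase (5221 nt, −1.69 ± 0.28), Cenpf (11130 nt, −1.68 ± 0.37) and Cenpe (7910 nt, −1.43 ± 0.33), both kinetochore proteins. Length-centred, Mki67 and Top2a still passed at −1.37 and −1.11, while Cenpf and Cenpe lay at −0.65 and −0.40 and did not. The 2 higher ones were Birc5 (survivin), at 0.87 ± 0.30, and Cenpa, the centromeric histone, at 0.89 ± 0.31, with transcripts of 3334 and 1466 nt, and of these Birc5 passed after centring. CDK inhibitors and D-type cyclins, brakes and drivers of the cycle, had 4 of 10 higher and 2 lower (median 0.40, length-centred 0.18). The CDK inhibitor gene Cdkn1c went from 1393 normalised counts in ESC-OB to 4997 in the sorted cells (1.84 ± 0.50) and Cdkn2b differed by 1.45 ± 0.27. Cdkn2a, from the same locus as Cdkn2b, was lower by −3.32 ± 0.49, and Cdkn1b by −2.20 ± 0.34.

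Bone genes showed few differences that passed. Of 20 genes for osteoblast matrix and mineralization 1 was higher and 1 lower (median 0.12, length-centred 0.13), and 13 of the 20 lay above 0. The higher one was Spp1 (osteopontin), at 9323 normalised counts in ESC, 3044 in ESC-OB and 6893 in the sorted cells (1.18 ± 0.44), and it no longer passed after length centring (0.57). Col1a1, whose promoter the reporter borrows, was at 124 normalised counts in ESC, 28915 in ESC-OB and 61215 in the sorted cells. Its difference of 1.08 ± 0.45 did not pass (z test, adjusted p = 0.0662), and length-centred it lay at 1.66 and did (adjusted p = 0.00218). Ibsp, bone sialoprotein, had the largest difference of the list, 5.05 ± 2.25. It went from 187 normalised counts in ESC-OB to 6201 in the sorted cells and did not pass (z test, adjusted p = 0.0929). Col1a2, the partner chain, lay at 0.85 ± 0.69, Alpl, alkaline phosphatase, at 1.91 ± 0.98 and Ifitm5, an osteoblast membrane protein, at 2.99 ± 1.22, all without passing. Sparc, osteonectin, was level at 0.01 ± 0.18. Ank, which exports the mineralization inhibitor pyrophosphate, was lower (−1.06 ± 0.24). Bglap, which encodes osteocalcin, has a base mean of 5.14 in the authors' deposited table and stayed outside the genes described.

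The error of the ESC libraries enters both changes. With the ESC part of the error removed by a negative binomial split, which was added after the data had been seen, 26.6% of all genes passed as higher and 24.8% as lower, 51.4% in all. In that version 8 of the 20 bone matrix genes were higher and 3 lower. The 8 were Col1a1, Col1a2, Alpl, Ibsp (bone sialoprotein), Spp1, Pth1r (parathyroid hormone receptor), Fkbp10 (a collagen chaperone) and Ifitm5. The 3 lower ones included Ank. This describes the list and is not a test of it.

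Regulators of the lineage had no gain that passed. Of 12 osteoblast transcription factors 0 were higher and 2 lower (median 0.03, length-centred −0.07). Cbfb, the binding partner of Runx2, was among the lower at −0.79 ± 0.17. Runx2 itself lay at −0.66 ± 1.20 and Sp7 (osterix), the factor downstream of it, at 1.60 ± 1.51, and neither passed. With the ESC part of the error removed, 2 of the 12 were higher and 5 lower. Runx2 was then among the lower, with an error of 0.19, and Sp7, with an error of 0.89, did not pass. Osteocyte genes had 2 of 11 higher and 2 lower (median 0.35, length-centred 0.11). Dmp1, a matrix phosphoprotein of osteocytes, was at 22.9 normalised counts in ESC, 16.5 in ESC-OB and 132 in the sorted cells. Its difference of 3.00 ± 1.02 passed, also after length centring (2.77). Mepe, another matrix protein of osteocytes, was at 1.22, 1.94 and 144 in the same order, and its difference of 6.21 ± 2.50 did not pass (z test, adjusted p = 0.0555). The other higher gene was Capg, an actin-capping protein (1.51 ± 0.46), which did not pass after centring (0.90). Hyou1, a chaperone of the endoplasmic reticulum, fell from 3275 to 289 normalised counts (−3.50 ± 0.22), and Pdpn, a membrane protein of early osteocytes, differed by −1.37 ± 0.21.

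The calls among collagen genes depended on length centring. Of 42 collagen genes 0 were higher and 2 lower (median 0.11), but length-centred 5 were higher and 0 lower (median 0.47). The transcripts are long, with a median of 5989 nt. The 2 that were lower were Col12a1, a fibril-associated collagen (−1.69 ± 0.62), and Col4a2, of basement membrane (−1.31 ± 0.49), and neither passed after centring (−0.66 and −0.73). Those that passed only after centring included Col5a1, which sets fibril width (0.33 ± 0.42 before and 1.36 after), and Col7a1, of anchoring fibrils (0.83 ± 0.50 and 1.86). Laminin chains of the basement membrane had 4 of 11 lower and 0 higher (median −0.86), with a length-centred median of 0.16. The 4 were Lama1 (−1.90 ± 0.50), Lamc1 (−1.73 ± 0.45), Lamb1 (−1.21 ± 0.47) and Lama5 (−0.86 ± 0.21). None of these passed after centring.

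Genes that process and crosslink collagen had 1 of 28 higher and 4 lower (median 0.10, length-centred −0.15). Loxl2, a lysyl oxidase, was at 18.0 normalised counts in ESC, 6923 in ESC-OB and 1065 in the sorted cells (−2.70 ± 0.47, length-centred −2.13). Plod2, a lysyl hydroxylase, differed by −1.17 ± 0.27, Mia3, which loads collagen into transport vesicles, by −0.97 ± 0.18 and P4ha1, a prolyl hydroxylase, by −0.51 ± 0.17. Those 3 passed after centring too. Pcolce, an enhancer of procollagen cleavage, was the one that was higher (1.08 ± 0.41), and it did not pass after centring (0.47).

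Other mesenchymal lineages had few genes that passed. Tendon and fibroblast genes had 1 of 22 higher and 3 lower (median 0.27, length-centred 0.36). Scx, a tendon transcription factor, was higher by 2.07 ± 0.63 but not after length centring (1.43), and Thy1, a surface protein of fibroblasts, lower by −3.13 ± 0.90. Pdgfra, a receptor of mesenchymal progenitors, was lower by −1.50 ± 0.46 and lay at −0.47 length-centred, without passing. Chondrocyte genes had 0 of 17 higher and 2 lower (median 0.63, length-centred 0.72), Prg4, a joint lubricant, being one (−2.15 ± 0.68). Smooth muscle and pericyte genes had 1 of 16 higher and 0 lower (median 0.04, length-centred 0.71), which was Smtn, smoothelin (1.37 ± 0.24). Their summed level was 8498 normalised counts in ESC-OB and 15092 in the sorted cells. The length-centred medians of the chondrocyte list and of the smooth muscle list were thus at least as far above 0 as that of epithelial genes (0.68), with fewer genes that passed. Of 8 adipocyte genes 1 was higher and 1 lower (median −0.04, length-centred −0.33), the latter Plin4, a lipid droplet coat protein (−2.38 ± 0.69).

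Part of the heart muscle list was lower. Of 22 cardiac genes 8 were lower (36.4%, beside 16.1% of all genes) and 0 higher, and 21 lay below 0. The 22 genes had a median of −1.49 and of −1.69 length-centred. Their summed level was 1781 normalised counts in ESC, 39473 in ESC-OB and 12412 in the sorted cells. Myh7, a cardiac myosin heavy chain, was at 13.1, 9702 and 1112 in the same order (−3.13 ± 0.62), and Ryr2, the calcium release channel, differed by −2.63 ± 0.34. None of the 22 was under the floor in either group. With the ESC part of the error removed 15 of the 22 were lower and 0 higher, beside 24.8% and 26.6% of all genes. Skeletal muscle genes had 0 of 8 higher and 0 lower (median −0.37, length-centred −0.41).

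Neuronal and glial lists also had medians below 0. Of 12 glial genes 3 were lower (25%, beside 16.1% of all genes) and 0 higher (median −1.60, length-centred −1.54). Gfap, an astrocyte filament protein, was at 4.84 normalised counts in ESC, 1626 in ESC-OB and 136 in the sorted cells (−3.58 ± 1.34). Slc1a2, a glutamate transporter of astrocytes, differed by −5.09 ± 1.81 and did not pass after length centring. Of 13 neuronal genes 3 were lower (23.1%, beside 16.1% of all genes) and 0 higher (median −0.66, length-centred −0.53). The 3 were the neural progenitor genes Sox1 (−2.85 ± 0.94), Pax6 (−2.12 ± 0.73) and Nes (−1.41 ± 0.39). Of these Sox1 still passed after centring (−2.58), and Pax6 and Nes did not (−1.85 and −0.84). Tubb3, also on the neuronal list, passed only after centring (−1.13 ± 0.49 before and −1.60 after). After centring 2 of the 12 glial and 2 of the 13 neuronal genes were lower, beside 11.7% of all genes.

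Endothelial genes had 1 of 13 lower and 0 higher (median −0.35, length-centred −0.25), the one being Cdh5, the junction protein of vessel walls (−3.17 ± 1.17). Macrophage and osteoclast genes had 1 of 14 lower, Mpeg1, a perforin of macrophages, which went from 667 to 105 normalised counts (−2.67 ± 0.53). Ptprc (CD45), the defining surface protein of blood cells, has a base mean of 1.70 in the authors' deposited table and is not among the genes described. The macrophage list as a whole had a median of 0.91 (length-centred 0.43), and 13 of its 15 measured members lay above 0 without passing.

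Pluripotency genes had 10 of 29 lower and 2 higher (median −0.72, length-centred −1.10). Of the 29, 7 were under the floor in the sorted or unsorted cells. The summed level of the list was 134829 normalised counts in ESC, 9594.5 in ESC-OB and 9115 in the sorted cells. Klf4 made up 4268 of that sum in ESC-OB and 2020 in the sorted cells. Pou5f1 was at 12020 in ESC, 26.7 in ESC-OB and 13.7 in the sorted cells (−0.97 ± 0.31). Nanog was at 11695, 4.99 and 1.09 in the same order (−2.20 ± 0.70). Both Pou5f1 and Nanog were among the lower. L1td1, an RNA-binding protein of stem cells, was at 5767 normalised counts in ESC, 175 in ESC-OB and 15.4 in the sorted cells (−3.50 ± 0.45), and Lin28a, a repressor of let-7 processing, differed by −2.68 ± 0.88. The 2 higher ones, Klf5 (1.20 ± 0.26) and Klf2 (1.48 ± 0.43), are also expressed in epithelium and endothelium, and Klf2 did not pass after length centring (1.01). The 6 Zscan4 genes, markers of a rare early-embryo-like state of ESC, were all lower and all under the floor in the sorted cells. Their median difference was −6.60 as fitted and −5.34 with levels raised to the floor. They are near-identical copies that share reads, so they are 1 observation rather than 6.

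Part of the epithelial list was higher in cells sorted on a collagen reporter. Of 24 simple and stratified epithelial genes 10 were higher and 0 lower (median 0.99, length-centred 0.68), and 22 lay above 0. Their summed level was 10349 normalised counts in ESC, 48795 in ESC-OB and 119550 in the sorted cells, and none of the 24 was under the floor. Krt17, a keratin of basal and wounded epithelium, was at 55.4, 1843 and 8362 in the same order (2.18 ± 0.48), and Cldn3, a tight junction protein, at 39.9, 520 and 2224 (2.10 ± 0.50). After length centring these 2 still passed, at 1.57 and 1.46, and they were the ones on the list that did. That share, 2 of 24, is near the 8.06% higher among all genes after centring. With length and GC centring 1 of the 24 was higher. Uncentred and with the ESC part of the error removed, 18 of the 24 were higher and 0 lower. Among all genes that version had 26.6% higher and 24.8% lower. Of 19 keratin genes 6 were higher and 0 lower (median 1.07, length-centred 0.76). Airway and mucosal genes had 1 of 18 higher and 1 lower (median 0.66, length-centred 0.13), and motile cilia genes 0 of 23 higher and 2 lower (median −0.24, length-centred −0.59). Liver and yolk sac genes had 0 of 23 higher and 1 lower, with a median of 0.0050 that turned to −0.22 once length was centred.

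**Figure D5:**
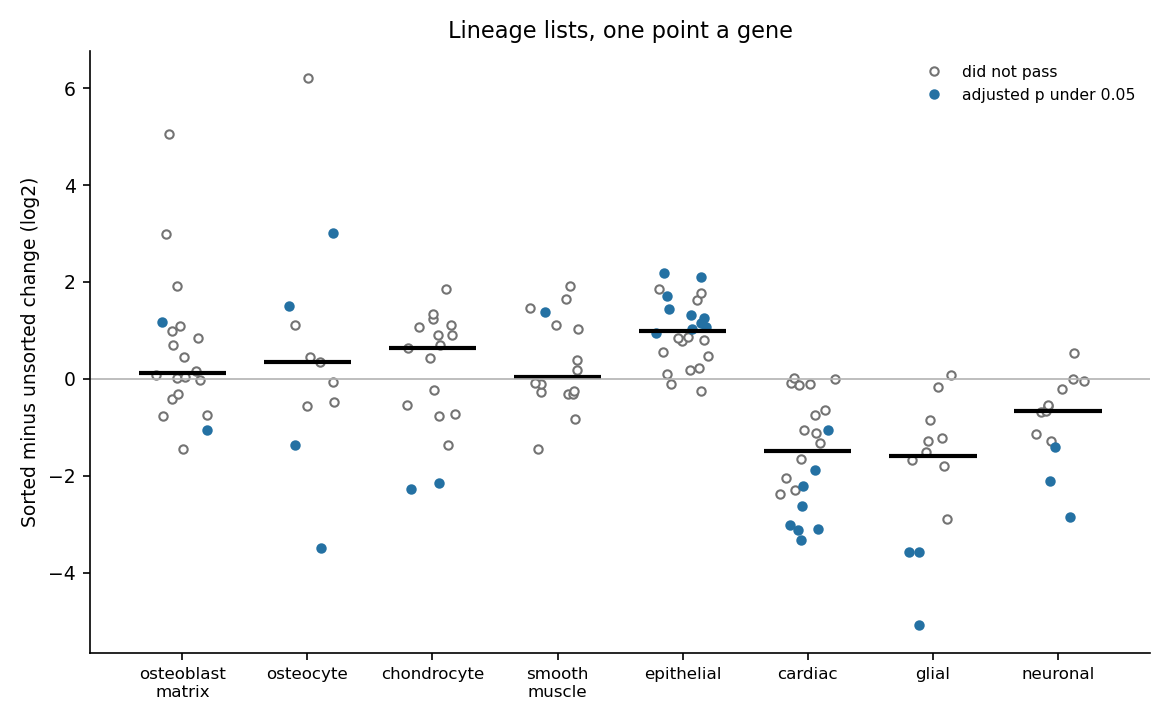
Difference on the log2 scale for each gene (points) of 8 lineage lists, filled where the adjusted p was under 0.05, with the list median as a bar. Epithelial genes centre on 0.99, bone matrix genes on 0.12, cardiac genes on −1.49 and glial genes on −1.60.

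Part of the immediate early list, genes that cells transcribe within minutes of a stimulus, was higher. Of 18 such genes 8 were higher (44.4%, beside 14.3% of all genes) and 0 lower, and 10 did not pass. The list's median was 1.07 and length-centred 0.76, with 6 higher after centring. With the ESC part of the error removed, 14 of the 18 were higher and 3 lower, beside 26.6% and 24.8% of all genes. Junb, an AP-1 subunit, was at 99.9 normalised counts in ESC, 6411 in ESC-OB and 21354 in the sorted cells (1.74 ± 0.41), and Dusp1, a phosphatase of MAP kinases, at 202, 5672 and 15900 (1.49 ± 0.21). Fos was already high unsorted, at 18.1 in ESC, 10782 in ESC-OB and 22297 in the sorted cells (1.05 ± 0.41), and did not pass after length centring (0.57). Fosb, a close relative of Fos, lay at −0.65 ± 0.64, from 5808 to 3689 normalised counts, and did not pass. Heat shock genes were divided, with 4 of 16 higher and 4 lower (median 0.01, length-centred −0.34). The inducible Hspa1a and Hspa1b, a near-identical pair whose reads can be shared, differed by 1.56 ± 0.24 and 1.52 ± 0.24, while Hsp90aa1 and Hsp90ab1, chaperones of signalling proteins, differed by −0.92 ± 0.25 and −0.84 ± 0.16.

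Many immediate early promoters hold the cyclic AMP response element, whose core is TGACGT. It is shown for both Fos and Dusp1, from RefSeq on GRCm38.p6 and read on the coding strand, with the core in capitals.
Fos: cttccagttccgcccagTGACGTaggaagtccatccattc
Dusp1: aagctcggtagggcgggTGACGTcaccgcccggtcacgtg
The Fos stretch is chr12:85473807-85473846 on the + strand and the Dusp1 stretch chr17:26508593-26508632 on the − strand. The core, on either strand, was found in 5 of 14 immediate early genes in the promoter table (35.7%) and in 2263 of 27025 genes (8.37%), in windows of 300 bases that run from 250 before to 50 after the start. A match is a description of the letters and not a bound site.

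Signalling pathways held members in both directions. Of 34 BMP and TGF-beta genes 3 were higher (8.82%) and 6 lower (17.6%), the latter near the 16.1% of all genes (median 0.04, length-centred 0.00). The lower ones included receptors: Bmpr2 went from 2211 normalised counts in ESC-OB to 328 in the sorted cells (−2.75 ± 0.29), and Bmpr1a differed by −1.43 ± 0.20. Of the intracellular Smads, Smad9 and Smad5 were lower (−3.11 ± 0.64 and −1.43 ± 0.24), and Smad1, which carries the same signal, was higher (1.02 ± 0.20, length-centred 1.08). The inhibitory Smad6 and the target Id2 were higher by 1.30 ± 0.43 and 1.25 ± 0.45, and neither passed after centring (1.08 and 0.77).

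Of 30 Wnt pathway genes 4 were higher and 2 lower (median 0.62, length-centred 0.43), with the feedback target Axin2 lower (−1.97 ± 0.36) and the secreted antagonist Sfrp1 higher (1.07 ± 0.33). Notch genes had 5 of 18 higher and 1 lower (median 0.09, length-centred 0.45). That one was the receptor Notch2 (−1.62 ± 0.25, 10500 nt), which lay at −0.59 length-centred and did not pass, and Hes6 was higher (1.59 ± 0.28). Hedgehog genes had 0 of 14 higher and 2 lower (median 0.14, length-centred 0.42), which were the receptor and target Ptch1 (−2.30 ± 0.37) and the co-receptor Cdon (−2.50 ± 0.57), of which Cdon did not pass after centring (−1.47).

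Insulin-like growth factor genes had 3 of 18 higher and 4 lower (median −0.28, length-centred −0.18). Igf2r, which clears the ligand Igf2, went from 8153 normalised counts in ESC-OB to 1320 in the sorted cells (−2.63 ± 0.35), and the mRNA-binding protein Igf2bp1 differed by −2.64 ± 0.23. Of the binding proteins, Igfbp2 and Igfbp7 were higher (1.996 ± 0.26 and 1.96 ± 0.62) and Igfbp5 lower (−1.80 ± 0.63). After length centring Igfbp2 still passed (1.38), and Igfbp7 and Igfbp5 did not (1.33 and −1.23).

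Reference genes placed the scale. Gapdh lay at −0.08 ± 0.25 and Actb at −0.62 ± 0.18, the second of which passed as lower. Length-centred, both lay below their neighbours in length and passed (−0.69 and −1.10). Malat1, a nuclear long non-coding RNA, lay at 0.29 ± 0.31 and, centred among long transcripts, at 1.31. Zinc finger genes of the Zfp series, the largest family measured, had 19 of 338 higher and 72 lower (median −0.35, length-centred −0.32).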

How the data were processed

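The data are the authors' deposited result tables of messenger RNA sequencing. The submitters' processing notes list DESeq2, R 3.2.2, STAR 2.4.2a and mm9 (mouse), with no roles or filters. The deposited columns are, per the file headers, the base mean (a signal: counts over size factors, averaged), the log2 change and its error (log2), the score that tests it, and p-values before and after adjustment. No file holds values per sample. The iPSC table was not used here.

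Identical base means show that the tables for sorted and unsorted cells come from 1 DESeq2 fit by the authors, with shared ESC libraries. The difference of the 2 deposited log2 changes was divided by the square root of the summed squared deposited errors. A two-sided normal p was adjusted by Benjamini-Hochberg over all matched genes with a deposited p (42 had none, 19 of them among the genes described), with a threshold of 0.05. The ESC error is counted in both changes. Levels were rebuilt from the base means and the 2 changes. Separately, 9 size factors were read from 388 base means under 0.45, which these factors explained in 100% of cases. Depth per library was read from the same factors, and group floors are 3 reads. The labels do not say whether libraries came from separate cultures, so p-values measure only the spread between these samples.

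Transcript length, GC content and exon number came from GENCODE M21 (GRCm38), a later build than that of the files, and were matched by symbol for 99.4% of the genes (582 through a synonym). Coordinates are those of GRCm38. Length centring subtracted the median of 10 length classes. The test was also run on simulated data, in which the change of the unsorted cultures from ESC was capped. Genes with larger changes are not covered by that simulation. Python 3.11.15, numpy 2.4.6, pandas 2.3.3, scipy 1.17.1 and matplotlib 3.10.9 were used.

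The genes, lists and tests were chosen with earlier results of these data known. Named were the 20 genes with the largest difference in each direction above the floor, up to 4 passing members of each list with the largest difference, the first 2 members of a list, and a fixed set of single genes. Other genes, among them H19, Rian, Meg3, Lrp5, genes shown by sequence and list members beyond the first 4, were chosen after their values were seen. A few genes covered by these rules are not reported here. Alternatives covered the filter, the adjustment, the error, centring, length, length with GC content and the threshold.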

Additional observations from a re-analysis of the deposited data

Results flagged for a closer look

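Some genes changed in opposite directions in the 2 comparisons with ESC, and the difference between those changes passed the test. They were picked by opposite deposited calls, so that pass was nearly settled in advance and adds no support. By the authors' deposited calls, 273 of the 14749 genes described rose in unsorted ESC-OB and fell in the sorted cells. Another 159 fell unsorted and rose sorted. Among those with the largest difference that rose unsorted and fell sorted were the neural gene Eef1a2, the transcription factor gene Foxo4 and Slc8a2, a sodium-calcium exchanger of brain. In the authors' deposited tables Eef1a2 was at 4.77 unsorted and −2.57 sorted (difference −7.33 ± 1.29). Foxo4 was at 0.64 and −5.02 (−5.66 ± 0.24) and Slc8a2 at 3.19 and −2.44 (−5.63 ± 0.66) in the authors' deposited tables. All 3 passed after length centring as well.

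The opposite pattern was led by Aldoart1, a retrotransposed aldolase gene of testis, and the predicted gene Gm6498. The authors' deposited tables have Aldoart1 at −2.53 unsorted and 1.07 sorted (3.60 ± 0.84) and Gm6498 at −2.64 and 0.85 (3.49 ± 0.74). The histone genes Hist1h1e and Hist1h2bl and the transposon-derived Zbed5 did the same. In the authors' deposited tables Hist1h1e was at −1.87 and 1.49 (3.36 ± 0.71), Hist1h2bl at −1.66 and 1.21 (2.87 ± 0.90) and Zbed5 at −1.29 and 1.14 (2.43 ± 0.21). Of these 5, Hist1h2bl did not pass after length centring, and Zbed5 had the highest level, at 854 normalised counts in ESC, 348 in ESC-OB and 1878 in the sorted cells. Aldoart1 resembles its parent gene, so reads may be shared.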

How the results depend on the processing

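The count of higher genes, 2105, was the value that moved most. It was 3441 with the error divided by the square root of 2, and 854 where a difference of at least 1 was asked for. It was 1179 with length centring and 1047 with length and GC centring. With the ESC part of the error removed, 3916 genes were higher and 3652 lower, against 2370 lower in the reported test. The share of higher genes among all that passed was 47.0%, 40.7% with length centring, 39.5% with length and GC centring and 33.6% at a difference of at least 1. Of 302 genes checked by name, 73 no longer passed with length centring, 10 newly passed and 3 turned direction. Pole, a replicative polymerase, moved to 0.019 and 0.038 with length and with length and GC centring, Lama5 to 0.16 and 0.12 and Itgav to 0.36 and 0.35. With length and GC centring Atf6 lay at 0.015, and Sparc at −0.48, which passed. Of 65 list medians 12 changed sign with length centring and 0 with levels raised to the floor. Centring on length, and on length with GC content, changes these values by construction, and whether length or something that goes with it set the trend was not tested. Alternatives with GC content or without the ESC error were chosen after seeing the data. No paired analysis was possible because the tables hold no values per sample, and for the same reason no library could be left out. Depth limits the low end: 178 genes were under the floor of 3 reads in the sorted or unsorted cells.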

Other observations

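Stress responses of the secretory pathway were divided. Of 20 unfolded protein response genes 5 were higher and 4 lower (median −0.01, length-centred −0.05). Xbp1, a transcription factor of this response, was higher by 0.79 ± 0.18 and Creld2, an endoplasmic reticulum protein, by 1.14 ± 0.19, while Canx, the chaperone calnexin, was lower by −1.002 ± 0.17. Glycolysis genes had 2 of 21 higher and 4 lower (median 0.25, length-centred −0.17). Hk2, a hexokinase, was at 4958 normalised counts in ESC, 1629 in ESC-OB and 394 in the sorted cells (−2.05 ± 0.42), and Ldha, lactate dehydrogenase, was higher by 0.94 ± 0.29. Xbp1 and Ldha did not pass after length centring.

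Inflammatory genes lay above 0 with few that passed. Of 15 cytokine and chemokine genes 2 were higher (13.3%, beside 14.3% of all genes) and 0 lower (median 0.86, length-centred 0.99), and one of them was Nfkbia, the feedback inhibitor of NF-kappa-B (1.79 ± 0.53), which did not pass after length centring. Of 20 interferon response genes 3 were higher (15%, again near all genes) and 0 lower (median 0.59, length-centred 0.31). Of 42 processed pseudogenes 14 were higher and 2 lower (median 0.94). After length centring 8 were higher and 6 lower (median 0.31). Reads of processed pseudogenes cannot be told apart from those of the parent genes. Of 35 kinesin genes of the Kif series, motors that move along microtubules, 16 were lower and 0 higher (median −0.92), and 6 were lower after length centring (median −0.43). Protein import genes of the Timm series, which carry proteins into mitochondria, had 8 of 14 higher and 0 lower (median 0.78, length-centred 0.37, with 5 higher).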
